A study of Homo sapiens with 6 samples.

Results

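Transcripts of surface antigens named by CD number were followed across 3 populations sorted on day 8 of reprogramming from BJ, an established human line of fibroblasts taken from foreskin. The genes were chosen by name alone, as symbols made of CD, a number and at most 1 letter. This gave 78 of the 27788 gene symbols in the table, and 30 of them had a mean of at least 1 FPKM (sequenced fragments scaled to transcript length and library size) over the 6 libraries and were tested. All 6 libraries came from cells infected with lentivirus that carried polycistronic constructs, labelled O2S and K2M, for OCT4, SOX2, KLF4 and MYC. Serum was used for the first days and embryonic stem cell medium after that. They were sorted with antibodies to CD13, the aminopeptidase encoded by ANPEP, and CD201, the protein C receptor encoded by PROCR. The groups are CD13+ CD201+ cells (double-positive), CD13- CD201+ cells (CD201-only) and CD13- CD201- cells (double-negative), with 2 libraries each. No label says whether the 2 libraries of a group came from separate infections, so p-values measure the spread between these libraries, which may be technical. Neither uninfected BJ cells nor a CD13+ CD201- population was analysed here.

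CD numbers are given to molecules of the cell surface that monoclonal antibodies recognise, first on white blood cells, and they say nothing of function. The proteins include tetraspanins, which organise other membrane proteins into patches, GPI-anchored inhibitors of complement, receptors for matrix, ligands that restrain or stimulate immune cells, and lineage molecules of lymphocytes and macrophages. Fibroblasts carry many of them, among them CD44, CD59 and the tetraspanins. Antibodies to such antigens are used to follow reprogramming, because fibroblast antigens are lost and antigens of epithelial and pluripotent cells are gained on that path.

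The sorts give a step for each protein. The CD13 step is double-positive minus CD201-only cells, which share CD201, and the CD201 step is CD201-only minus double-negative cells, which share the absence of CD13. Both steps use the same CD201-only libraries, so each is given by its own values. Differences are in log2(FPKM + 1) with the standard error (SE) of a limma fit over 12210 genes, with calls made where the adjusted p was below 0.05. This scale understates the change of genes near or under 1 FPKM. ANPEP, which is not among the CD-numbered symbols, was at 158 and 153 FPKM in double-positive, 29.05 and 28.7 in CD201-only and 35.7 and 36.2 in double-negative libraries. PROCR was at 51.3 and 52.5 FPKM in double-positive, 45.8 and 49.1 in CD201-only and 16.6 and 17.98 in double-negative libraries. ANPEP was thus higher in both double-positive libraries than in the other 4, and PROCR was lowest in the double-negative pair. ANPEP was also called in the CD201 step, at -0.31 (limma adjusted p = 0.000301). The CD13 step of PROCR, 0.13, was not called (limma adjusted p = 0.0606). It was called under median-ratio rescaling, quantile normalization and a replicate block (adjusted p = 0.0138, 0.0178 and 0.0222).

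The relative sequencing depth, estimated from the most frequent ratio between libraries among very low values, ran from 0.729 to 1 of the deepest library. The median coefficient of variation between the libraries of a group lay between 0.967% and 1.97% above 100 FPKM, and between 5.32% and 6.38% at 1 to 10 FPKM. All 10 fibroblast markers reached 1 FPKM, and their summed level was 8422 to 8526 FPKM in double-positive, 3759 to 3779 in CD201-only and 4226 to 4227 in double-negative libraries. THY1 was highest in double-negative libraries (1644 and 1639 FPKM), and VIM was lowest there (1420 and 1433 FPKM). The other fibroblast markers had the order of their sum. The sum of 7 pluripotency markers was 30.0 to 30.2 FPKM in double-positive, 64.9 to 65.3 in CD201-only and 97.8 to 102 in double-negative libraries. ZFP42 was under 1 FPKM throughout. TDGF1 made up most of that sum, and NANOG and UTF1 did not follow its order. The sum of 6 epithelial markers was 2041 to 2108 FPKM in double-positive, 4018 to 4090 in CD201-only and 3072 to 3084 in double-negative libraries. Nearly all of it came from the keratins KRT8 and KRT18, whereas EPCAM was at 1.40 and 1.74 FPKM in double-positive, 2.67 and 2.47 in CD201-only and 3.93 and 3.10 in double-negative libraries. Their part in the results below was not tested. In bulk RNA, fewer cells with a transcript and less of it per cell cannot be told apart.

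Most tested surface antigens of the CD series were called in both steps, many of them with opposite signs. In the CD13 step 23 of the 30 tested members were called, against 58.7% of all tested genes. Of these 15 were higher and 8 lower in double-positive than in CD201-only cells, where the shares over all tested genes were 22.9% and 35.8%. In the CD201 step 24 were called, against 37.9%, with 11 higher and 13 lower in CD201-only than in double-negative cells, against 16.5% and 21.5%. Between double-positive and double-negative cells 27 were called, against 66.6%, with 15 higher and 12 lower, against 24.5% and 42.1%. The median difference of the 30 members was 0.202, -0.0801 and 0.174 in the 3 comparisons in that order, and that of all tested genes -0.0772, -0.0364 and -0.109. The median size of the difference, whatever its sign, was 0.5, 0.291 and 0.696 for the members and 0.227, 0.141 and 0.28 for all tested genes. Differences of at least 2-fold on the log2(FPKM + 1) scale were called for 6 members in the CD13 step, against 4.8% of all tested genes, with 4 higher (4.12% of all) and 2 lower (0.68% of all). In the CD201 step there were 7, against 2.21%, with 2 higher (1.18% of all) and 5 lower (1.03% of all). Between double-positive and double-negative cells there were 9, against 6.68%, with 5 higher (4.67% of all) and 4 lower (2.01% of all).

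**Figure D1:**
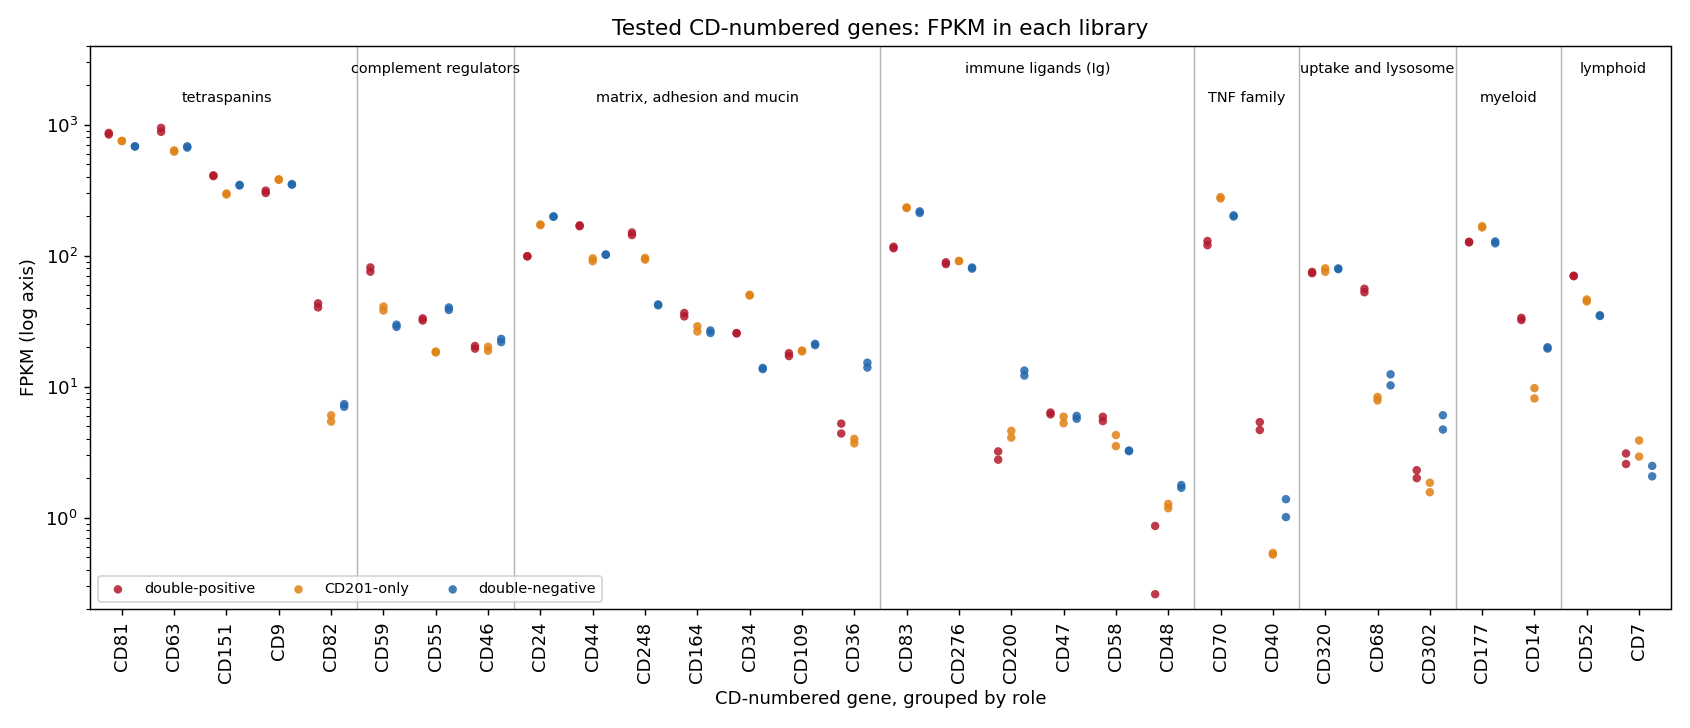
FPKM (log axis) of the 30 tested CD-numbered genes in each of the 6 libraries, grouped by role, with double-positive, CD201-only and double-negative libraries side by side as points. The tetraspanins CD81, CD63, CD151 and CD9 are among the most abundant members, and CD82, CD68 and CD40 stand higher in the double-positive libraries than in the other 4.

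By the calls, 4 members followed the CD13 sort alone (CD48, CD58, CD63 and CD164), 5 the CD201 sort alone (CD7, CD46, CD109, CD276 and CD302), 19 were called in both steps and 2 in neither (CD47 and CD320). The shares of all tested genes were 32.4%, 11.6%, 26.3% and 29.7% in that order. Where both steps were called, a contrast of their sizes in the same fit named the larger one. The CD13 step was the larger for 12 members, namely CD82, CD68, CD40, CD14, CD70, CD83, CD59, CD44, CD24, CD52, CD151 and CD9, against 9.62% of all tested genes. The CD201 step was the larger for 5, namely CD34, CD36, CD200, CD248 and CD55, against 3.93%. For CD81 and CD177 the sizes were not told apart, as for 12.8% of all tested genes. Of the 19, CD24, CD52, CD59, CD81, CD200 and CD248 went the same way in both steps. The others went opposite ways, so their highest or lowest mean was in CD201-only cells. As both steps use those libraries, a deviation of that pair alone could give both calls. Among members called in 1 step only, the contrast of sizes was not called for CD48, CD58, CD109 and CD7 (limma adjusted p = 0.554, 0.238, 0.493 and 0.168). Their place with 1 sort alone thus rests on the threshold of each step. A step that was not called may still differ by an amount these libraries could not resolve.

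**Figure D2:**
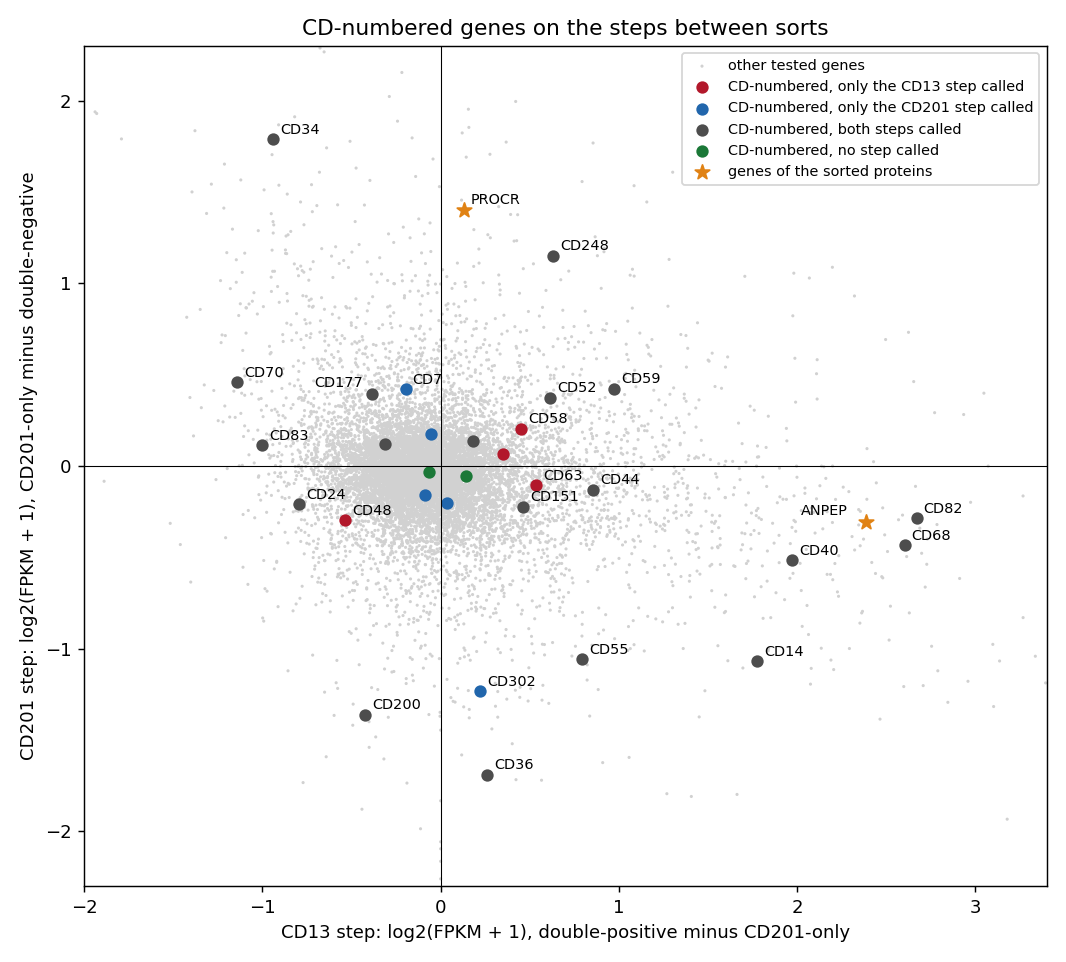
The CD201 step (vertical) against the CD13 step (horizontal), both in log2(FPKM + 1), for the tested genes in grey, CD-numbered genes coloured by which step was called, and ANPEP and PROCR as stars, with 20 genes beyond the axes and members within 0.36 on both axes left unlabelled. CD82, CD68 and CD40 lie near ANPEP on the right, and CD14 lies to the right but lower. CD34 and CD248 lie at the top with PROCR, and CD36, CD200 and CD302 lie at the bottom.

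Promoter sequences are shown for the genes with the largest CD13 step, CD82 and CD68, and for CD34, the gene with the largest rise in the CD201 step. These 3 were chosen after the values were seen, and CD36, with the largest fall in the CD201 step, was left out because RefSeq gives it 6 promoters. They come from RefSeq on the build GRCh38.p14, not the hg19 build of the expression table, and were matched by symbol, which succeeded for 23 of the 30 tested members. Each runs 5′ to 3′ from 250 bases before to 50 bases after the annotated start, and capitals mark matches on either strand to the motifs searched.
CD82 promoter (GRCh38.p14, chr11:44565413-44565712, plus strand): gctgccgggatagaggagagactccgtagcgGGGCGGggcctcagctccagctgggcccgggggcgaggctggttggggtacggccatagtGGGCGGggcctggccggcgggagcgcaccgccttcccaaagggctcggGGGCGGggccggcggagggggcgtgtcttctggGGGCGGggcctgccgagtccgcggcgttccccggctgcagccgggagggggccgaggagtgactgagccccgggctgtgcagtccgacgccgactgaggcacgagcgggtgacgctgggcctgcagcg
CD68 promoter (GRCh38.p14, chr17:7579388-7579687, plus strand): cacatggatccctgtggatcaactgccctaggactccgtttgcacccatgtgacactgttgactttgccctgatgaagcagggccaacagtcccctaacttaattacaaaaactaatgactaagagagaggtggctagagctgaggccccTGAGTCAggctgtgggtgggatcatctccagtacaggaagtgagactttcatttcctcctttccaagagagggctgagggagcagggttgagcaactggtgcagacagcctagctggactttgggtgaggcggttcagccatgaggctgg
CD34 promoter (GRCh38.p14, chr1:207911076-207911375, minus strand): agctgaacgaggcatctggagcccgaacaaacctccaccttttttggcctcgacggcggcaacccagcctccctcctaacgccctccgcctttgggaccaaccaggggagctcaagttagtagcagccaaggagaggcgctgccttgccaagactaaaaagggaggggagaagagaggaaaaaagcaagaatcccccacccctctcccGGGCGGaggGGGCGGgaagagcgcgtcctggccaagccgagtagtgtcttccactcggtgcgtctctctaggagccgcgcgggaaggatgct
Searched were the AP-1 site (TGANTCA) and the GC box (GGGCGG). The CCAAT box (CCAAT) and the TATA box (TATAAA) were searched as well. So were the E-box (CACGTG) and the octamer (ATGCAAAT). The last was the NF-kB site. Both strands were read, and no motif contains another. The CD82 promoter holds 4 GC boxes, starting 219, 159, 111 and 78 bases before the start. The CD34 promoter holds 2, starting 42 and 33 bases before it. The CD68 promoter holds no GC box and 1 AP-1 match, 100 bases before the start. GC boxes occur in 45% of the 35116 promoters in the table and in 25 of the 47 promoters of matched members. AP-1 matches occur in 7.71% of all promoters and in 5 of the 47, those of CD14, CD36, CD59, CD63 and CD68. The CCAAT box was in 34.6% of all promoters and in 9 of the 47, and the TATA box in 11.5% and in 4. The E-box was in 7.26% of all and in 2 of the 47, the octamer in 1.77% and in 1, and the NF-kB site in 0.191% and in 0. A match is a description of the sequence and not a measured binding site.

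Tetraspanins included the 4 most abundant members, CD81, CD63, CD151 and CD9, and also CD82, which had the widest difference of the group in the CD13 step. CD82, a tetraspanin known as a suppressor of metastasis, was at 43.3 and 40.3 FPKM in double-positive, 5.41 and 6.05 in CD201-only and 7.36 and 7.02 in double-negative libraries. Both double-positive libraries lay far above the other 4, with a mean 7.30 times that of CD201-only and 5.81 times that of double-negative cells. The CD13 step was 2.67 (SE 0.0641, limma adjusted p = 2.63e-07), the largest among the 30 members. The CD201 step was -0.29 (limma adjusted p = 0.0123), and leaving out CD201-only replicate 1 (adjusted p = 0.0651) or double-negative replicate 1 (adjusted p = 0.0799) ended that call.

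The other tetraspanins moved by much less. CD63, a tetraspanin of late endosomes and exosomes, was at 884 and 946 FPKM in double-positive, 623 and 637 in CD201-only and 669 and 685 in double-negative libraries. It was higher in the double-positive pair than in any other library (CD13 step 0.54, SE 0.0345, limma adjusted p = 1.54e-05). Its CD201 step of -0.10 was not called (limma adjusted p = 0.0509) but was called in 7 alternative settings, with adjusted p between 0.0106 and 0.0485. Without double-positive replicate 1 the adjusted p was 0.012, and without double-positive replicate 2 it was 0.0106, so the place of CD63 in the class of the CD13 sort alone depends on these choices. CD151, a partner of laminin-binding integrins, was at 406 and 411 FPKM in double-positive, 299 and 294 in CD201-only and 344 and 348 in double-negative libraries. It was lowest in CD201-only cells, with a CD13 step of 0.46 and a CD201 step of -0.22. CD81, a co-receptor of B cells and of hepatitis C virus, was at 867 and 843 FPKM in double-positive, 754 and 751 in CD201-only and 684 and 684 in double-negative libraries. Its levels were ordered with the number of sorted proteins on the cells, by a CD13 step of 0.18 and a CD201 step of 0.14. CD9, which is also abundant on pluripotent cells, was at 301 and 314 FPKM in double-positive, 380.0 and 383 in CD201-only and 352 and 349 in double-negative libraries. CD9 was the 1 tetraspanin that fell in the CD13 step (-0.31, SE 0.0257, limma adjusted p = 5.41e-05). Its CD201 step was 0.12 (limma adjusted p = 0.00925), a call that ended when CD201-only replicate 2, double-negative replicate 1 or double-negative replicate 2 was omitted (adjusted p = 0.0546, 0.051 and 0.0692). Of the 7 tetraspanins named by CD number, CD37 reached 0.0890 FPKM at most and CD53 was listed at 0, and both are known from leukocytes.

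The 3 membrane regulators of complement went 3 ways. CD59, which blocks the membrane attack complex, was at 75.5 and 81.4 FPKM in double-positive, 38.2 and 40.9 in CD201-only and 29.8 and 28.6 in double-negative libraries. It rose in both steps, by 0.97 (SE 0.0498, limma adjusted p = 5.42e-06) and by 0.42 (limma adjusted p = 0.000689). CD55, which speeds the decay of complement convertases, was at 33.2 and 32.0 FPKM in double-positive, 18.3 and 18.5 in CD201-only and 40.3 and 38.5 in double-negative libraries. CD201-only cells thus had the least, with no overlap between any groups. The CD201 step of CD55 was -1.06 (SE 0.0389, limma adjusted p = 4.03e-06) and its CD13 step 0.79 (limma adjusted p = 4.39e-06). CD46, a cofactor for cleavage of deposited complement, was at 20.5 and 19.5 FPKM in double-positive, 20.2 and 18.8 in CD201-only and 23.2 and 21.9 in double-negative libraries. Its CD13 step of 0.03 was not called (limma adjusted p = 0.585, interval of 95% from -0.0867 to 0.157), and its CD201 step was -0.20 (limma adjusted p = 0.0208). The CD201 step was no longer called without CD201-only replicate 2 (adjusted p = 0.109) or double-negative replicate 1 (adjusted p = 0.13).

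Among receptors for matrix, adhesion molecules and mucins, CD34 and CD248 had the largest rises in the CD201 step and CD36 the largest fall. CD34, a sialomucin of blood progenitors, endothelium and some fibroblasts, was at 25.7 and 25.5 FPKM in double-positive, 49.7 and 50.3 in CD201-only and 13.9 and 13.6 in double-negative libraries. The 3 groups did not overlap, and CD201-only cells had the most. The CD201 step was 1.79 (SE 0.0341, limma adjusted p = 2.9e-07) and the CD13 step -0.94 (limma adjusted p = 1.27e-06). The sum of 5 endothelial markers had the same order, at 22.3 to 24.5 FPKM in double-positive, 27.6 to 29.7 in CD201-only and 14.7 to 15.5 in double-negative libraries. Of these TEK made up most and had that order, 3 of the 5 reached 1 FPKM, and PECAM1 and CDH5 stayed under it. TIE1 was instead highest in double-positive libraries (3.2 and 3.5 FPKM, against 2.3 and 2.63 in CD201-only libraries). VWF was also highest in double-positive libraries, and CDH5 in double-negative ones. The part of these markers in the values of CD34 was not tested. CD248, the stromal mucin endosialin, was at 150.5 and 144 FPKM in double-positive, 93.4 and 96.2 in CD201-only and 41.8 and 42.4 in double-negative libraries. It was higher with each sorted protein, by 1.15 in the CD201 step (SE 0.0323, limma adjusted p = 1.17e-06) and by 0.63 in the CD13 step (limma adjusted p = 5.45e-06).

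CD44, the main receptor for hyaluronan, was at 168 and 171 FPKM in double-positive, 90.9 and 95.5 in CD201-only and 102 and 102 in double-negative libraries. The double-positive pair stood above the rest, with a CD13 step of 0.85 (SE 0.0304, limma adjusted p = 1.16e-06). Its CD201 step was -0.13 (limma adjusted p = 0.0149), a call lost under median-ratio rescaling (adjusted p = 0.0654). It also ended without CD201-only replicate 1 (adjusted p = 0.0837) and without either double-negative library (adjusted p = 0.0854 and 0.0711). CD24, a small GPI-anchored mucin found on epithelial and pluripotent cells, was at 99.0 and 99.1 FPKM in double-positive, 173 and 171 in CD201-only and 199.7 and 199 in double-negative libraries. Its levels ran opposite to CD59 and CD248, lowest where both proteins were present, with a CD13 step of -0.79 (SE 0.0222, limma adjusted p = 4.54e-07) and a CD201 step of -0.21 (limma adjusted p = 0.000438). CD24 has processed pseudogenes that can share its reads.

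CD36, a scavenger receptor for fatty acids and thrombospondin, was at 4.39 and 5.22 FPKM in double-positive, 3.69 and 3.996 in CD201-only and 15.3 and 14.0 in double-negative libraries. Double-negative cells had 3.81 times the mean of CD201-only cells, and the CD201 step was -1.69 (SE 0.0864, limma adjusted p = 1.5e-05), the largest fall of that step. The CD13 step of 0.26 was called (limma adjusted p = 0.0366) but lost without double-positive replicate 2 (adjusted p = 0.168), without either CD201-only library (adjusted p = 0.153 and 0.0613) and without either double-negative library (adjusted p = 0.0574 and 0.056). CD164, the sialomucin endolyn, was higher in double-positive cells (36.6 and 34.4 FPKM) than in CD201-only (28.9 and 26.4) and double-negative (25.7 and 26.9) cells. CD109, a GPI-anchored protein that binds TGF-beta, was lower in double-positive (17.1 and 18.02 FPKM) and CD201-only (18.9 and 18.6) than in double-negative (21.3 and 20.8) libraries. Its CD201 step of -0.16 (limma adjusted p = 0.0251) did not hold when any CD201-only or double-negative library was omitted (adjusted p between 0.0788 and 0.134).

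Ligands of the immunoglobulin superfamily and their kin were led by CD83 and CD200. CD83, known as a marker of mature dendritic cells, was at 114 and 117 FPKM in double-positive, 231 and 234 in CD201-only and 212 and 218 in double-negative libraries. Both CD13-negative groups lay well above the double-positive pair, and the CD13 step fell by 1.004 (SE 0.0261, limma adjusted p = 3.48e-07). The CD201 step of 0.11 (limma adjusted p = 0.0138) did not hold without CD201-only replicate 1 (adjusted p = 0.0528), CD201-only replicate 2 (adjusted p = 0.0752) or double-negative replicate 1 (adjusted p = 0.102). CD200, a ligand that restrains myeloid cells, was at 2.77 and 3.20 FPKM in double-positive, 4.09 and 4.60 in CD201-only and 13.3 and 12.2 in double-negative libraries. Double-negative cells held 2.93 times the mean of CD201-only cells and 4.26 times that of double-positive cells. The CD201 step was -1.36 (SE 0.0854, limma adjusted p = 3.59e-05) and the CD13 step -0.42 (limma adjusted p = 0.00453).

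CD276, the checkpoint ligand B7-H3, was at 89.1 and 86.3 FPKM in double-positive, 90.9 and 91.3 in CD201-only and 79.7 and 81.3 in double-negative libraries. Its CD201 step was 0.18 (limma adjusted p = 0.00269). CD58, the ligand of CD2 on T cells, was at 5.89 and 5.46 FPKM in double-positive, 3.52 and 4.27 in CD201-only and 3.26 and 3.22 in double-negative libraries. It was highest in the double-positive pair, with a CD13 step of 0.45 (limma adjusted p = 0.00412). Its CD201 step of 0.20 was not called (limma adjusted p = 0.117) and was called without CD201-only replicate 1 (adjusted p = 0.0472). CD48, a relative of CD58, was at 0.864 and 0.260 FPKM in double-positive, 1.18 and 1.27 in CD201-only and 1.69 and 1.77 in double-negative libraries. The double-positive libraries of CD48 differed widely from each other, and the call in the CD13 step (limma adjusted p = 0.0329) was lost without double-positive replicate 2 and without each CD201-only or double-negative library, with adjusted p from 0.0566 to 0.115. The CD201 step of CD48, -0.30 (limma adjusted p = 0.226), was called without double-positive replicate 1 (adjusted p = 0.0389) or double-positive replicate 2 (adjusted p = 0.0387). CD47, the signal against engulfment, was called in no comparison, at 6.14 and 6.35 FPKM in double-positive, 5.90 and 5.26 in CD201-only and 5.98 and 5.69 in double-negative libraries. Intervals of 95% for CD47 ran from -0.0243 to 0.306 in the CD13 step and from -0.221 to 0.109 in the CD201 step, and rescaling by median ratios gave a call in the CD13 step (adjusted p = 0.0434). The checkpoint ligand CD274, or PD-L1, fell just outside the filter with a highest library value of 1.39 FPKM, and CD48 was the lowest member inside it with a mean of 1.17 FPKM.

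The tested CD-numbered members of the TNF families, the ligand CD70 and the receptor CD40, went opposite ways in the CD13 step. CD70, the ligand of CD27, was at 129.5 and 120.3 FPKM in double-positive, 280.0 and 274 in CD201-only and 203 and 199 in double-negative libraries. No groups overlapped, CD201-only cells had the most, and the CD13 step was -1.14 (SE 0.0370, limma adjusted p = 8.52e-07), the largest fall of that step. The CD201 step was 0.46 (limma adjusted p = 0.000114). Its receptor CD27 did not exceed 0.0859 FPKM in any library. CD40, a receptor of the TNF receptor family, was at 5.36 and 4.67 FPKM in double-positive, 0.523 and 0.537 in CD201-only and 1.01 and 1.38 in double-negative libraries. The double-positive mean was 9.47 times the CD201-only mean, the widest ratio between groups of any tested member in the CD13 step, and the CD13 step was 1.97 (SE 0.111, limma adjusted p = 8.34e-06). That ratio rests on a CD201-only mean of only 0.53 FPKM, and CD40 passed the filter mainly through its double-positive libraries. The CD201 step of -0.52 (limma adjusted p = 0.0104) did not hold without double-negative replicate 2 (adjusted p = 0.0601).

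Genes of uptake and of myeloid cells included some of the widest differences. CD68, the lysosomal glycoprotein macrosialin that marks macrophages, was at 56.0 and 52.6 FPKM in double-positive, 8.35 and 7.85 in CD201-only and 12.4 and 10.2 in double-negative libraries. Double-positive cells stood apart, at 6.70 times the CD201-only mean, with a CD13 step of 2.60 (SE 0.0847, limma adjusted p = 8.52e-07) and a CD201 step of -0.43 (limma adjusted p = 0.00689). CD14, the co-receptor for lipopolysaccharide, was at 33.5 and 32.3 FPKM in double-positive, 9.74 and 8.13 in CD201-only and 19.6 and 20.0 in double-negative libraries. CD201-only cells had the least, with a CD13 step of 1.78 (SE 0.0748, limma adjusted p = 2.3e-06) and a CD201 step of -1.07 (limma adjusted p = 5.89e-05). The other 7 blood markers beside CD14 summed to 1.16 to 1.39 FPKM in double-positive, 0.796 to 0.816 in CD201-only and 1.90 to 1.92 in double-negative libraries. Of these 7, ITGAM was the highest in every library and reached 1.12 FPKM. Among the blood markers CD3E was listed at 0, and the leukocyte gene PTPRC reached 0.886 FPKM at most.

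CD177, known from neutrophils, was at 128 and 126 FPKM in double-positive, 168 and 164 in CD201-only and 129 and 124 in double-negative libraries. CD201-only cells had the most, and the outer groups overlapped, with a CD13 step of -0.38 (SE 0.0272, limma adjusted p = 2.51e-05) and a CD201 step of 0.39 (limma adjusted p = 5.71e-05). Between double-positive and double-negative cells CD177 differed by 0.01 (limma adjusted p = 0.802), and median-ratio rescaling made this a call of 0.12 (adjusted p = 0.01). CD177 has a pseudogene copy that can share its reads. CD302, a C-type lectin receptor, was at 2.003 and 2.301 FPKM in double-positive, 1.56 and 1.85 in CD201-only and 6.05 and 4.71 in double-negative libraries. It was highest in the double-negative pair, with a CD201 step of -1.23 (SE 0.120, limma adjusted p = 0.000285). CD320, the receptor for transcobalamin and its vitamin B12, was called in neither step, at 75.2 and 73.5 FPKM in double-positive, 80.1 and 75.4 in CD201-only and 79.0 and 80.0 in double-negative libraries.

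The other antigens known from lymphocytes were few. CD52, a short GPI-anchored glycopeptide of lymphocytes, was at 69.8 and 70.4 FPKM in double-positive, 46.4 and 44.7 in CD201-only and 35.1 and 34.7 in double-negative libraries. It rose in both steps, by 0.61 (SE 0.0314, limma adjusted p = 5.39e-06) and by 0.37 (limma adjusted p = 0.000135). CD7, an early T cell antigen, was at 3.09 and 2.57 FPKM in double-positive, 2.93 and 3.89 in CD201-only and 2.07 and 2.48 in double-negative libraries, and its CD201 step of 0.42 (limma adjusted p = 0.0411) was lost without CD201-only replicate 2 (adjusted p = 0.196) or either double-negative library (adjusted p = 0.202 and 0.072). Of 25 lymphoid genes in the list, CD52 and CD7 were the 2 tested, and 9 were listed at 0.

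**Figure D3:**
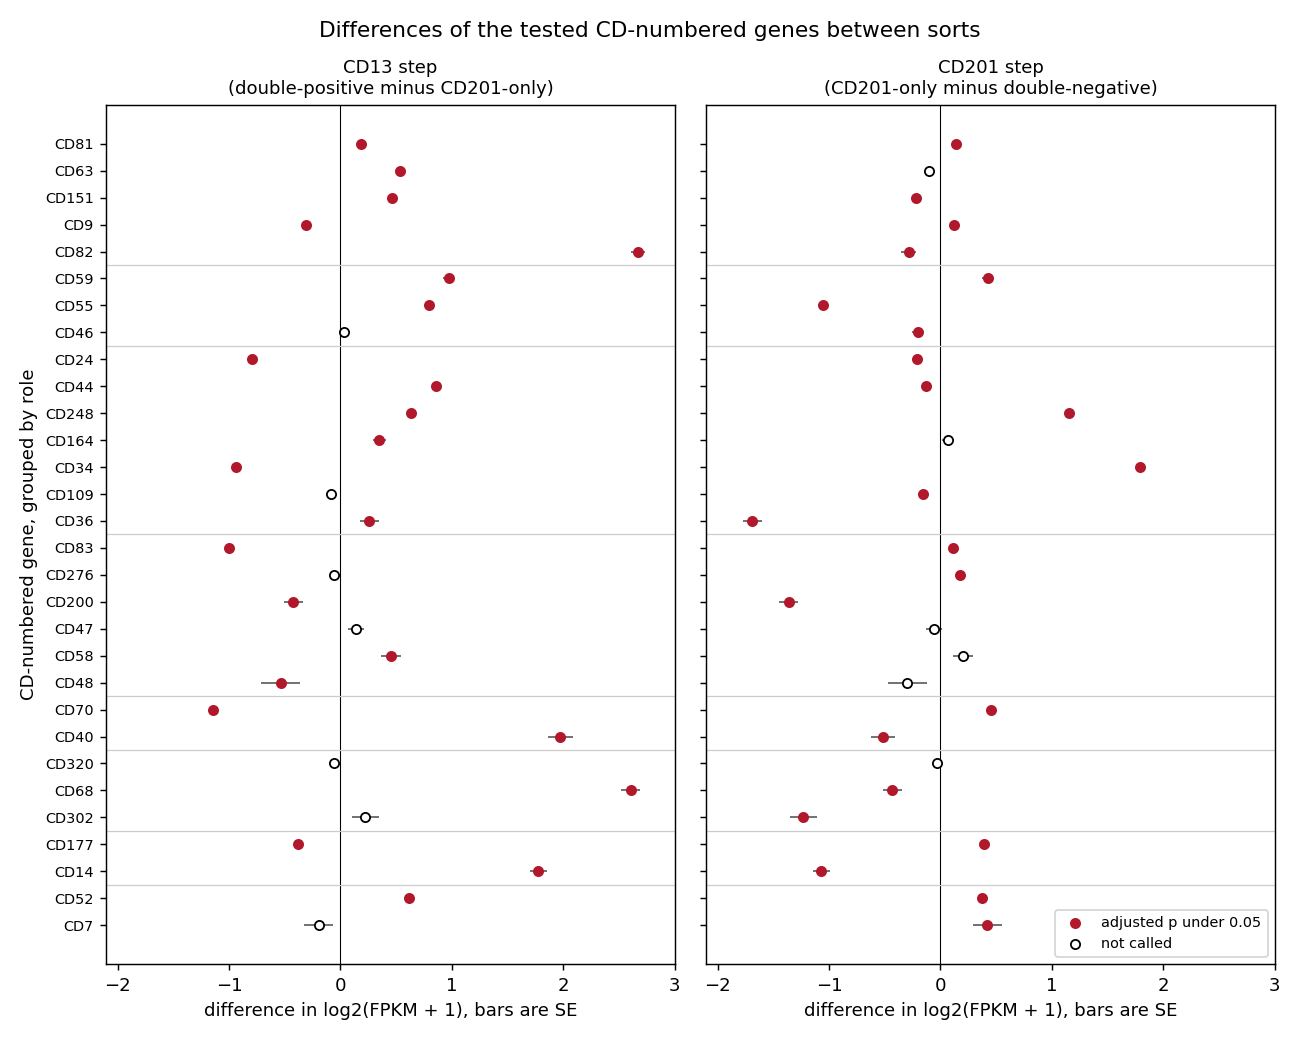
Differences in log2(FPKM + 1) with their SE (bars) for the 30 tested CD-numbered genes, the CD13 step on the left and the CD201 step on the right, filled where the adjusted p was under 0.05. In the CD13 step CD82 (2.67), CD68 (2.60), CD40 (1.97) and CD14 (1.78) lie farthest to the right, and in the CD201 step CD34 (1.79) and CD36 (-1.69) lie at the ends.

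The 48 members outside the filter are mostly genes of blood lineages. Of these, 23 were listed at 0 in all 6 libraries, and the other 25 had a value above 0 somewhere, 5 of them at 0.5 FPKM or more (CD101, CD274, CD4, CD79A and CD79B). Among the genes listed at 0 were CD1A, CD1B, CD1C, CD1E, CD2, CD3D, CD3E, CD3G, CD5, CD28, CD53, CD69, CD80, CD84, CD86, CD99, CD207, CD209, CD300A, CD300C, CD300E and CD300H. The remaining 20 with low values were CD1D, CD6, CD8A, CD8B, CD22, CD27, CD33, CD37, CD38, CD72, CD74, CD93, CD96, CD160, CD163, CD180, CD226, CD244, CD247 and CD5L, which encodes a secreted protein rather than a surface antigen. CD99, an adhesion protein found on most cells, lies in a pseudoautosomal region, and 17 of 18 genes of those regions in the table were listed at 0, among them the widely expressed SLC25A6. The 0 for CD99 is therefore only what the table lists, and no level is drawn from it.

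Exons of 14 of the 30 tested members overlap another gene in GENCODE v29. Libraries were stranded, but whether the counting used strand is not given in the sources used here. CD302 overlaps MARCH7 on the opposite strand by 2398 bases, and MARCH7 reached 4.51 FPKM, near the level of CD302 itself, so CD302 is uncertain. CD302 also shares exons with the read-through gene LY75-CD302. CD68 overlaps AC016876.2 on its own strand by 647 bases, and that gene is not among the table's symbols.

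A companion list of surface antigens that have a CD number but another gene symbol held 120 genes, of which 97 were tested. In the CD13 step 46 of them were higher and 31 lower in double-positive than in CD201-only cells, with a median of 0.111, against 22.9% and 35.8% of all tested genes and their median of -0.0772. In the CD201 step 25 were higher and 42 lower, with a median of -0.107, against 16.5% and 21.5% of all tested genes and their median of -0.0364. Of 13 tested stromal antigens 9 rose and 2 fell in the CD13 step, and 4 rose and 7 fell in the CD201 step. Of 10 integrin chains 8 rose and 1 fell in the CD13 step, and 2 rose and 4 fell in the CD201 step. Of 11 epithelial and pluripotent antigens 2 rose and 8 fell in the CD13 step, and 3 rose and 4 fell in the CD201 step, where their median was 0.00692. The all-gene shares just given apply to each of these counts. The epithelial and pluripotent group also held N-cadherin (CDH2), which was called lower in both steps. It held NCAM1 too, which was called lower in the CD13 step and higher in the CD201 step. PDGFRB, the platelet-derived growth factor receptor CD140b, was at 135 and 134 FPKM in double-positive, 20.9 and 19.9 in CD201-only and 22.3 and 21.97 in double-negative libraries, and its CD13 step of 2.66 (limma adjusted p = 1.6e-08) was about that of CD82. ICAM1, the adhesion molecule CD54 (CD13 step 1.97), and IL1R1, the interleukin 1 receptor CD121a (2.06), were the next largest rises, and SEMA4D, a semaphorin known as CD100 (-1.08), ENPP1, an ectonucleotide pyrophosphatase (-0.95), and CEACAM1, the adhesion molecule CD66a (-0.94), the largest falls. IL1R1 averaged 6.44 FPKM in double-positive, 0.781 in CD201-only and 1.12 in double-negative cells. Like CD40, it passed the filter mainly through the double-positive libraries.

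In the CD201 step CEACAM1 was the largest rise of the companion list, at 26.6 and 27.8 FPKM in double-positive, 53.8 and 52.6 in CD201-only and 20.7 and 20.1 in double-negative libraries, so that CD201-only cells had the most, as with CD34. The hemidesmosome integrin ITGB4 (CD201 step 1.29) and the TNF receptor TNFRSF1B (1.11) also rose. LEPR, the leptin receptor CD295 (-1.38), PROM1, the stem cell antigen CD133 (-1.36), and CDH2, N-cadherin or CD325 (-1.11), were the largest falls. PROM1 was at 2.27 and 2.49 FPKM in double-positive, 3.84 and 4.39 in CD201-only and 11.7 and 12.7 in double-negative libraries, highest in the same group as CD200 and CD36. BSG, or CD147, was named after its values were seen. It was at 585 and 558 FPKM in double-positive, 576 and 556 in CD201-only and 566 and 568 in double-negative libraries. Intervals of 95% for BSG ran from -0.0557 to 0.0832 in the CD13 step and from -0.0717 to 0.0671 in the CD201 step.

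**Figure D4:**
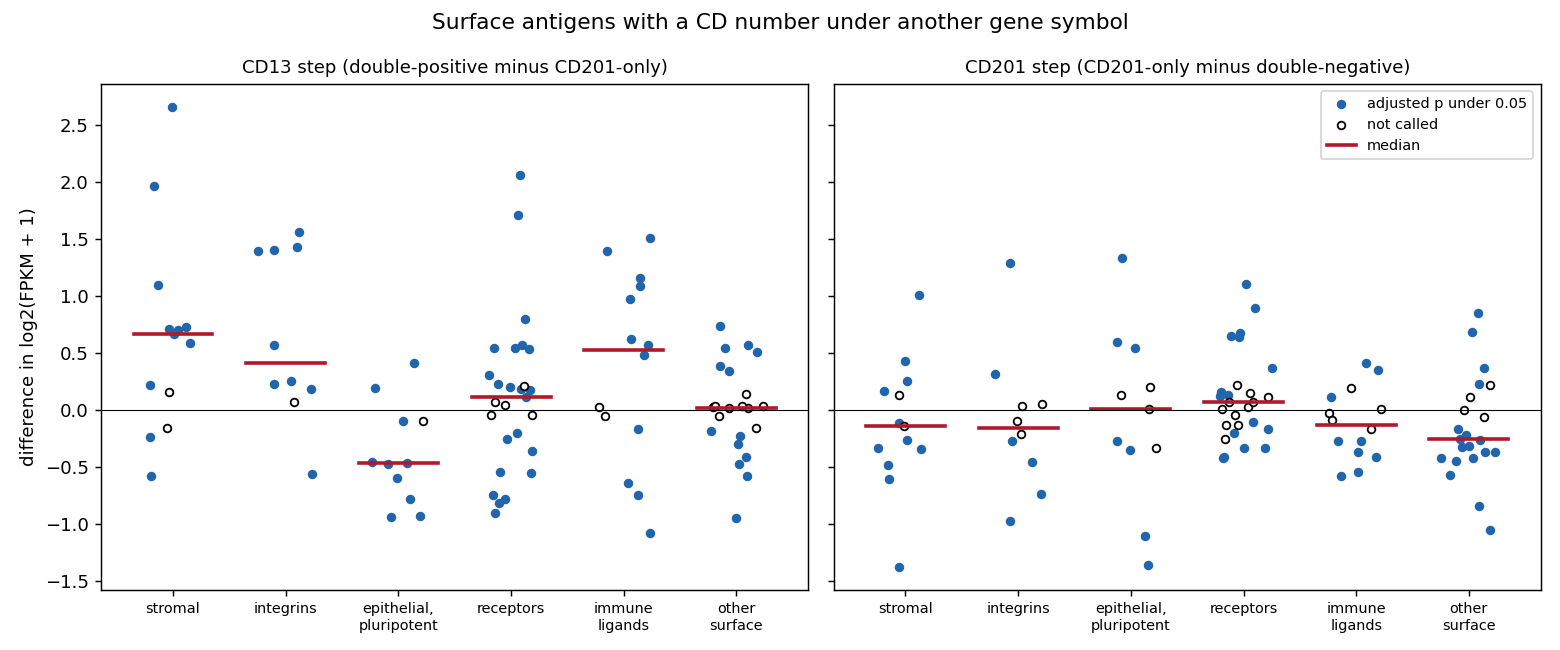
Differences in log2(FPKM + 1) of the 97 tested companion antigens in the CD13 step (left) and the CD201 step (right), by group of antigens, with points filled where the adjusted p was under 0.05 and red lines at the medians. In the CD13 step the median is 0.67 for stromal antigens, 0.414 for integrins and -0.464 for epithelial and pluripotent antigens.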

How the data were processed

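Poly-A RNA of sorted BJ cells was sequenced from stranded libraries, as the labels' protocols say. A single table of FPKM values was deposited, with 6 library columns, all of them assigned through the labels, and 0 columns were left over. STAR, Cuffnorm and the builds hg19 and GRCh37 are named, per the submitters' processing notes. For their versions, the annotation and the scaling option of Cuffnorm, the entry is: not given in the sources used here. Counts were not used, so depth is known only relative to the deepest library.

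Values were taken as log2(FPKM + 1), and genes averaging 1 FPKM or more across libraries entered limma 3.58.1 (R 4.3.3). The fit has 1 mean per group and a variance trend, with 3 residual and 3.95 prior degrees of freedom. Adjusted p-values are Benjamini-Hochberg over all 12210 genes per comparison. The test was tried on simulated data. Python 3.11.15, pandas 2.3.3, numpy 2.4.6 and matplotlib 3.10.9 drew the plots.

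The members, roles and companion list were chosen with earlier results of these data known. Named genes were, per comparison, up to 8 called rises and 8 falls with groups that did not overlap and at least 5 FPKM in the higher group, then the 6 highest members, members called in no comparison, and up to 3 companion rises and 3 falls per step. All other members were given with their class or range. Some genes of these lists are not reported here. The depth estimate, the pseudoautosomal list and the promoters shown were chosen after the values were seen. The alternatives were a pseudocount of 0.1, no filter or one of 5 FPKM, median-ratio and quantile scaling, 2 other variance models, only the groups compared, a replicate block, and each library left out.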

Additional observations from a re-analysis of the deposited data

How the results depend on the processing

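Of 1335 recomputed differences of the members under the alternatives, 1260 kept their direction and their side of the threshold, 53 lost the call, 14 gained one, 1 called value reversed and 7 that were not called changed sign. The reversed one is CD320 between double-positive and double-negative cells, called at -0.09 (limma adjusted p = 0.0486) and at 0.0115 (adjusted p = 0.802) under median-ratio rescaling. The CD320 call was also lost without a filter, under quantile normalization and without the variance trend (adjusted p = 0.0813, 0.343 and 0.123). Leaving out any double-positive or double-negative library ended it too. Median-ratio rescaling moved the median of all genes between double-positive and double-negative cells to -0.0164, against -0.109 as deposited, and the share of higher calls to 49.8%, against 36.8%. In the CD13 step that share was 49%, against 39%, and in the CD201 step 53.6%, against 43.4%.

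The count of called members stayed within 1.5 times the reported one in each comparison. Leaving out 1 library gave 21 to 23 called members in the CD13 step, 17 to 26 in the CD201 step and 24 to 27 between double-positive and double-negative cells. Class counts moved more. With 1 library left out, 2 to 7 members followed the CD13 sort alone, 3 to 7 the CD201 sort alone, 14 to 21 both and 2 to 7 neither. With a filter of 5 FPKM, which tested fewer members, 1 followed the CD13 sort alone and 3 the CD201 sort alone. Without the variance trend 7 followed the CD13 sort alone. Without a filter 25 were in neither class, but that setting also tested members averaging under 1 FPKM. Class counts under a changed filter cover another set of members, so they do not compare directly with the reported ones.

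Without the variance trend the CD201 steps of CD44, CD7, CD83 and CD9 were not called (adjusted p = 0.068, 0.0598, 0.0806 and 0.0689). Without a filter those of CD7 in the CD201 step and of CD36 and CD48 in the CD13 step were not (adjusted p = 0.111, 0.086 and 0.0851). With only the groups compared, CD36 and CD48 in the CD13 step were not (adjusted p = 0.0667 and 0.058), nor was CD109 in the CD201 step under median-ratio rescaling (adjusted p = 0.0636).

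Same-numbered libraries did not deviate together in every pair of groups (r = 0.117, -0.0727 and 0.0761). These values do not settle whether such libraries shared an infection, a sort or a run. Replicate 2 had the greater relative depth in each group. With the replicate number as a block, 23 members were called in the CD13 step, 25 in the CD201 step and 27 between double-positive and double-negative cells. Depth in fragments is unknown.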
